A study of Mus musculus with 42 samples.

Results

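The genes described here are 9 genes of cellular iron handling, taken by symbol from the gene tables of the whole series, which hold 54532 genes: the ferritin subunits Fth1 and Ftl1 and the ferritin cargo receptor Ncoa4, which serve storage, the importers Tfrc, Slc11a2 and Slc39a14, the exporter Slc40a1, and the regulators Aco1 and Ireb2. Their mRNA was measured by poly-A RNA sequencing of whole mouse kidney in 42 libraries that form 14 groups of 3. In the Cagg cohort of C57BL/6 mice, a tamoxifen-inducible Cre active throughout the body (CaggCreERT2) removed floxed Tsc2 (Tsc2 KO), floxed Tfeb (Tfeb KO) or both genes (DKO). Pups of all 4 Cagg groups, controls (Ctrl) included, received tamoxifen through the milk of their mothers, and kidneys were taken at postnatal day 30. The study's text gives the sequenced Cagg Ctrl kidneys as Cre-positive with wild-type Tsc2 but elsewhere describes controls without Cre, so their Cre status is uncertain. In the KSP cohort the cadherin-16 promoter drove Cre in kidney epithelium only, the same 4 genotypes were sampled at postnatal day 50, and Ctrl mice lacked Cre. In the rapamycin cohort, KSP Ctrl, Tsc2 KO and DKO mice received either vehicle or rapamycin, an inhibitor of the kinase complex mTORC1, at 1 mg/kg intraperitoneally 3 times a week for 11 injections from postnatal day 25, and kidneys were taken at postnatal day 50.

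Tsc2 encodes a subunit of the complex that restrains mTORC1, and Tfeb encodes a transcription factor of lysosomal genes whose activity depends on mTORC1. Iron enters most cells bound to transferrin through the transferrin receptor (Tfrc), leaves endosomes through the divalent metal transporter DMT1 (Slc11a2), is stored in shells of ferritin heavy (Fth1) and light (Ftl1) chains, is recovered when NCOA4 carries ferritin to lysosomes, and leaves the cell through ferroportin (Slc40a1). In the kidney, the proximal tubule takes filtered transferrin back up through megalin and cubilin. The iron regulatory proteins IRP1 (Aco1) and IRP2 (Ireb2) bind a hairpin called the iron-responsive element: bound near the start of an mRNA they block its translation, and bound in the 3′ untranslated region (UTR) they protect the mRNA from decay. With iron at hand, IRP1 instead holds an iron-sulfur cluster and works as cytosolic aconitase, while IRP2 is degraded.

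The iron-responsive elements are printed here because they mark which of the 9 mRNAs carry the binding site of the proteins that Aco1 and Ireb2 encode. UTRs of the GRCm38 (mm10) annotation GENCODE M21 were searched for an unpaired C, 5 stem bases, the loop CAGTGN with N as A, C or T, and 5 bases pairing with the stem (G-T pairs allowed). A fully paired match was present in 4 members, and Slc11a2 had a match with 1 unpaired base. Among 21901 protein-coding genes, a fully paired match was present in a 5′ UTR of 23 (0.105%) and in a 3′ UTR of 99 (0.452%). A match with exactly 1 unpaired base, counted apart from the fully paired ones, was present in 0.215% and 0.963% of genes. The 5′ UTR elements lie at chr19:9982732-9982760 on the plus strand (Fth1, in 4 of 5 coding transcripts), chr7:45459779-45459807 on the minus strand (Ftl1, in 1 of 2) and chr1:45925465-45925493 on the minus strand (Slc40a1, in 1 of 4). Each stretch is 29 bases long, is given 5′ to 3′ on the transcribed strand, and has its loop in capitals.
Fth1 5′ UTR: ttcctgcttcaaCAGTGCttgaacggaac
Ftl1 5′ UTR: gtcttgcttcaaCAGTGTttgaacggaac
Slc40a1 5′ UTR: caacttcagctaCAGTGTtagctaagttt
The 3′ UTR of Tfrc held 4 such elements on the plus strand of chromosome 16, in 1 of 3 coding transcripts, at chr16:32631219-32631247, chr16:32631598-32631626, chr16:32631663-32631691 and chr16:32631710-32631738, printed in that order. That of Slc11a2 lies at chr15:100395153-100395181 on the minus strand, in 1 of 6 coding transcripts.
Tfrc 3′ UTR, element 1: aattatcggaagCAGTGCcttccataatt
Tfrc 3′ UTR, element 2: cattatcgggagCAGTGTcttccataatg
Tfrc 3′ UTR, element 3: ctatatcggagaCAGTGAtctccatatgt
Tfrc 3′ UTR, element 4: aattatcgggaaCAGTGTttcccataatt
Slc11a2 3′ UTR: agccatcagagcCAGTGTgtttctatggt
The counts are sums over a gene, so transcripts with and without an element are not separated in any value below.

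In GRCm38 the genes lie at chr19:9982703-9985092 (Fth1, plus strand, ENSMUSG00000024661), chr7:45457944-45459884 (Ftl1, minus, ENSMUSG00000050708), chr14:32159865-32179855 (Ncoa4, plus, ENSMUSG00000056234), chr16:32608920-32632794 (Tfrc, plus, ENSMUSG00000022797), chr15:100387898-100425072 (Slc11a2, minus, ENSMUSG00000023030), chr14:70303469-70351425 (Slc39a14, minus, ENSMUSG00000022094), chr1:45908068-45926523 (Slc40a1, minus, ENSMUSG00000025993), chr4:40143081-40198338 (Aco1, plus, ENSMUSG00000028405) and chr9:54863789-54912530 (Ireb2, plus, ENSMUSG00000032293). RefSeq promoter windows (GRCm38.p6, the 250 bases before a start) matched 6 of the 9 genes with 10 windows. The E-box CACGTG, searched on both strands, was in 0 of these 10 and in 6.02% of 32851 windows. The antioxidant-response letters TGACNNNGC were in 1 window, that of Ncoa4, and in 10.2% of all. The absence of a match says only that these letters are not in that window.

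Depth was 14926050 to 22807605 assigned reads a library (median 17802376). Deposited Tsc2 FPKM was lower in every untreated or vehicle Tsc2 KO library (3.54 to 4.55) than in any untreated or vehicle Ctrl library of the 3 cohorts (8.59 to 10.6), and Tfeb FPKM was lower in every Tfeb KO and untreated or vehicle DKO library than in the Ctrl libraries of its own cohort. In the Cagg cohort, the count and FPKM tables disagreed on the names of 4 libraries, and for 2 of them also on the group. Under the FPKM table's names, Tsc2 was at 9.05 to 10.2 FPKM in Cagg Tfeb KO and at 4.82 to 5.64 in Cagg DKO. The count table's names would put a library with 10.2 in DKO and one with 5.26 in Tfeb KO, against their Tsc2 levels. Names of the FPKM table were used. Results that change with the count table's names are given with both, the latter as a check only. Xist read above Y-linked genes in 0 Ctrl, 2 Tsc2 KO, 3 Tfeb KO and 1 DKO Cagg libraries of 3 each, and in all KSP and rapamycin cohort libraries, so sex is uneven between the Cagg groups. Summed FPKM of 9 adrenal genes was 33.4 to 4556 in 6 libraries (Cagg Tfeb KO replicates 1 and 2, vehicle Tsc2 KO replicates 1 and 2, vehicle DKO replicates 1 and 2) and at most 2.33 in the other 36. Fold changes of the 9 genes that rest on those 6 libraries are given with and without them where named, a choice made after seeing the data. For a gene with no fold change printed for all libraries, the ratio of mean FPKM is given instead. Leaving them out keeps 1 library in such a group, whose spread is then assumed to be that of the other groups.

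Levels are FPKM, fragments counted per unit of transcript length and of library size, which allows genes of different length to be compared. The tables of the 3 cohorts were made separately, so levels are tested within a cohort and only set side by side across cohorts. Fold changes are log2 and come from edgeR's quasi-likelihood test on the counts, with the standard error (SE) and a Benjamini-Hochberg adjusted p-value that takes in every gene tested in the cohort. A gene rose or fell where the adjusted p was 0.05 or lower and its mean FPKM reached 5 in a compared group. Slc39a14 never reached that minimum, so 8 of the 9 genes could be called. Whole kidney is a mixture, in which fewer cells of a type and less RNA per cell cannot be told apart.

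The ferritin mRNAs were far more abundant than the rest. Fth1 ranged from 2563 to 5590 FPKM over the 42 libraries (median 3957) and Ftl1 from 659 to 1935 (median 1226). Aco1 followed at 41.9 to 116 (median 89.6). Next came Slc11a2 at 10.3 to 33.0 (median 20.1) and Tfrc at 8.27 to 30.8 (median 16.6). Ireb2, from 6.87 to 15.9 (median 11.1), and Slc40a1, from 4.82 to 17.5 (median 10.9), overlapped widely. Ncoa4 ranged from 2.83 to 17.0 (median 6.94) and Slc39a14 from 1.94 to 6.03 (median 2.82), with 41 of 42 libraries under 5. Within a cohort, the highest group mean was at most 2.39-fold the lowest for Aco1, 2.04-fold for Slc11a2, 1.86-fold for Ncoa4, 1.83-fold for Ftl1, 1.78-fold for Tfrc and for Slc40a1, 1.60-fold for Fth1, 1.54-fold for Slc39a14 and 1.26-fold for Ireb2. Read depth does not limit the abundant members, since Fth1 had at least 36976 counts, Ftl1 17024 and Aco1 3722 in every library.

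Loss of Tsc2 lowered Aco1 and raised Slc11a2 in the Cagg and rapamycin cohorts, and of the other members Slc40a1 and Ftl1 were each called in 1 cohort. The question of this comparison is what Tsc2 inactivation does to the kidney. In the Cagg cohort 3 members were called, Aco1 lower and Slc11a2 and Slc40a1 higher, where 38.4% of all genes that could be called were. In the vehicle groups of the rapamycin cohort 3 were called, Aco1 lower and Slc11a2 and Ftl1 higher, against 48.5%. In the KSP cohort 0 were called by edgeR's quasi-likelihood test, against 18.2% of genes, although 5 of the 9 members had an unadjusted p under 0.05, against 27.5% of all genes tested, and DESeq2 called 3 (Ftl1, Tfrc and Slc11a2), against 22.5% of genes. The median log2 fold change of the 9 members was 0.24 in the Cagg cohort, where the median of all genes was 0.00, 0.15 in the KSP cohort, where that of all genes was -0.01, and -0.22 in the vehicle groups, where that of all genes was 0.01. The shares of members called by edgeR were thus close to or under those of all genes, and the results below concern single genes.

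Aco1, the gene of IRP1 and cytosolic aconitase, had 113, 111 and 90.3 FPKM in Cagg Ctrl and 57.7, 55.5 and 60.1 in Cagg Tsc2 KO. The Tsc2 KO libraries lay close together and all under the Ctrl libraries. Aco1 fell by 0.80 on the log2 scale (SE 0.11, adjusted p = 0.000234, edgeR). In the rapamycin cohort the vehicle Ctrl libraries had 99.5, 111 and 107 FPKM, and the vehicle Tsc2 KO libraries 41.9, 42.5 and 52.0. This was the lowest group of all 14, at 45.4 ± 5.66 FPKM (SD, n = 3), and it did not overlap with its control. The log2 fold change was -1.22 (SE 0.15, adjusted p = 1.32e-05, edgeR), and -1.04 (SE 0.18, adjusted p = 0.00164) without the libraries that carried adrenal genes. In the KSP cohort Aco1 had 108, 88.9 and 78.1 FPKM in Ctrl and 61.7, 58.9 and 80.1 in Tsc2 KO. There Tsc2 KO replicate 3 reached into the Ctrl range, and the change of -0.46 (SE 0.20) did not pass the test (adjusted p = 0.157, edgeR).

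Slc11a2, the gene of DMT1, moved the other way. It had 20.2, 17.6 and 15.6 FPKM in Cagg Ctrl and 30.2, 33.0 and 27.3 in Cagg Tsc2 KO, with no overlap. It rose by 0.82 (SE 0.16, adjusted p = 0.00217, edgeR), or by 0.82 with an adjusted p of 0.0587 under the names of the count table. Vehicle Ctrl had 12.2, 13.6 and 17.4 FPKM and vehicle Tsc2 KO 26.9, 20.8 and 27.6, again apart. Here Slc11a2 rose by 0.80 (SE 0.19, adjusted p = 0.00373, edgeR), and by 0.92 (SE 0.21, adjusted p = 0.00893) without the libraries with adrenal genes. In the KSP cohort Ctrl had 11.1, 11.8 and 21.3 FPKM and Tsc2 KO 23.9, 22.8 and 30.7. The groups did not overlap, but Ctrl replicate 3 was close to the Tsc2 KO libraries, and the fold change of 0.80 (SE 0.26) had an adjusted p of 0.0659 by edgeR. Without KSP Ctrl replicate 3 it was 1.18 with an adjusted p of 0.0116.

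**Figure D1:**
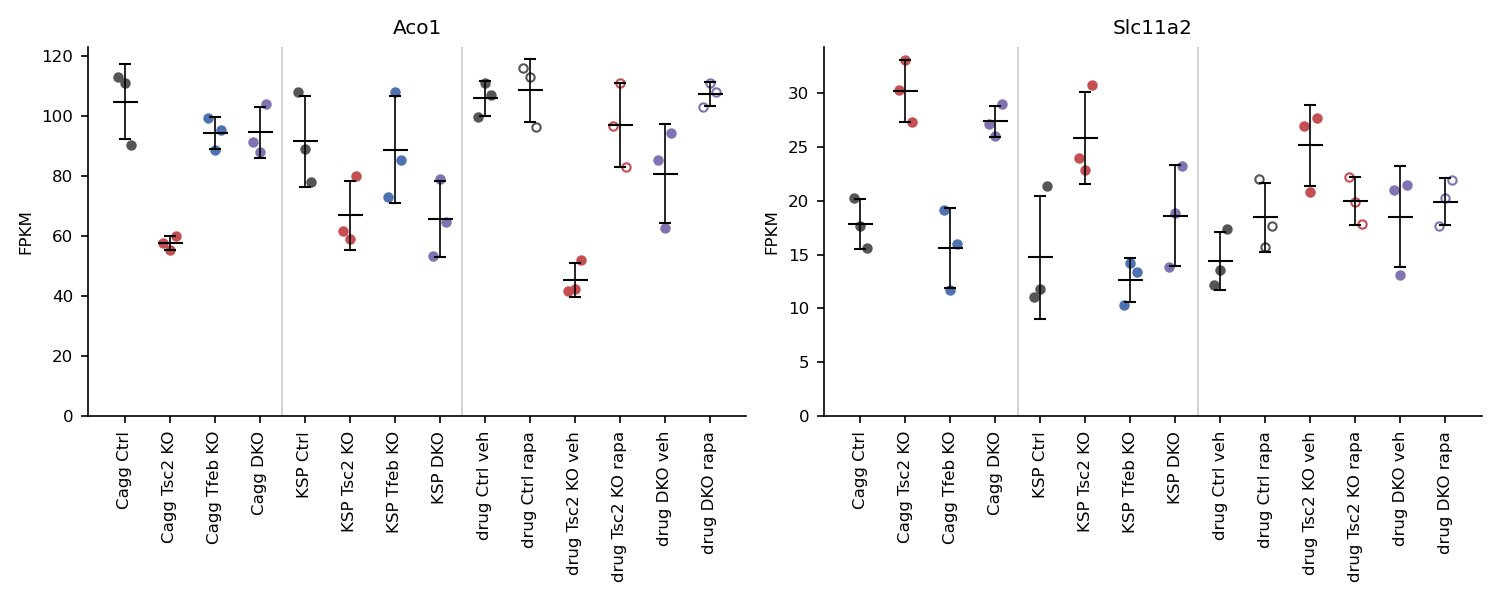
FPKM of Aco1 (left) and Slc11a2 (right) in each of the 42 libraries, by group, with the group mean and SD as black bars and open points for rapamycin. Aco1 is lowest in vehicle Tsc2 KO (41.9 to 52.0) and Slc11a2 is highest in Cagg Tsc2 KO (27.3 to 33.0).

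Slc40a1, the only known exporter of iron from cells, had 10.7, 12.2 and 11.9 FPKM in Cagg Ctrl and 16.3, 16.0 and 13.5 in Cagg Tsc2 KO. The groups were apart, and Slc40a1 rose by 0.46 (SE 0.10, adjusted p = 0.00501, edgeR; adjusted p = 0.11 under the names of the count table). In KSP Ctrl it had 7.42, 8.12 and 8.21 FPKM, and in KSP Tsc2 KO 11.7, 12.2 and 13.0. All 3 KSP Tsc2 KO libraries were above all 3 controls by more than the spread within either group. The fit over all 4 KSP groups gave 0.63 (SE 0.23) with an adjusted p of 0.0929. A fit of these 6 libraries alone, which leaves out the more variable Tfeb KO (7.84, 4.82 and 8.01) and DKO (6.12, 11.8 and 9.08) groups, gave an adjusted p of 0.00506. In the vehicle groups, Ctrl had 13.0, 11.4 and 12.4 FPKM and Tsc2 KO 10.8, 16.9 and 17.5. Replicate 1 of the vehicle Tsc2 KO was under the controls while the others were above them. With all libraries Slc40a1 was not called there and its unadjusted p was not under 0.05, with a ratio of mean FPKM of 1.22. Without that replicate it was called (log2 fold change 0.48, adjusted p = 0.00243, edgeR). Without all libraries with adrenal genes, which leaves 1 vehicle Tsc2 KO library, the fold change was 0.49.

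Of the ferritin chains, the light chain Ftl1 rose with Tsc2 loss in the vehicle groups, and the heavy chain Fth1, which carries the ferroxidase site, did not pass the test in any cohort. Ftl1 had 972, 763 and 873 FPKM in vehicle Ctrl and 1241, 1034 and 1453 in vehicle Tsc2 KO, without overlap. It rose by 0.52 (SE 0.20, adjusted p = 0.0481, edgeR), a call close to the threshold: it held without vehicle Tsc2 KO replicate 2 alone (adjusted p = 0.0293) and was lost when any other of the 6 libraries was left out (up to 0.161) and with only the groups compared (0.065). Without the libraries with adrenal genes it was 0.73 (adjusted p = 0.0103). For the KSP mice, Ftl1 was at 1065, 1210 and 1347 FPKM in Ctrl and at 1831, 1586 and 1785 in Tsc2 KO. These also did not overlap, with a fold change of 0.52 (SE 0.20) and an adjusted p of 0.112 by edgeR and 0.0465 by DESeq2. In the Cagg cohort they overlapped, at 1394, 1136 and 1487 in Ctrl and 1369, 1909 and 1907 in Tsc2 KO (0.43, SE 0.19, adjusted p = 0.115, edgeR). Fth1 averaged 3313 ± 275 (SD, n = 3) in Cagg Ctrl against 3724 ± 635 in Tsc2 KO, and its groups overlapped in all 3 cohorts. Processed copies of ferritin genes took few reads: the Ftl1 gene held 97.975% to 99.620% of the reads on itself and its 4 copies, and Fth1 at least 99.990% of those on itself and its 11 copies.

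**Figure D2:**
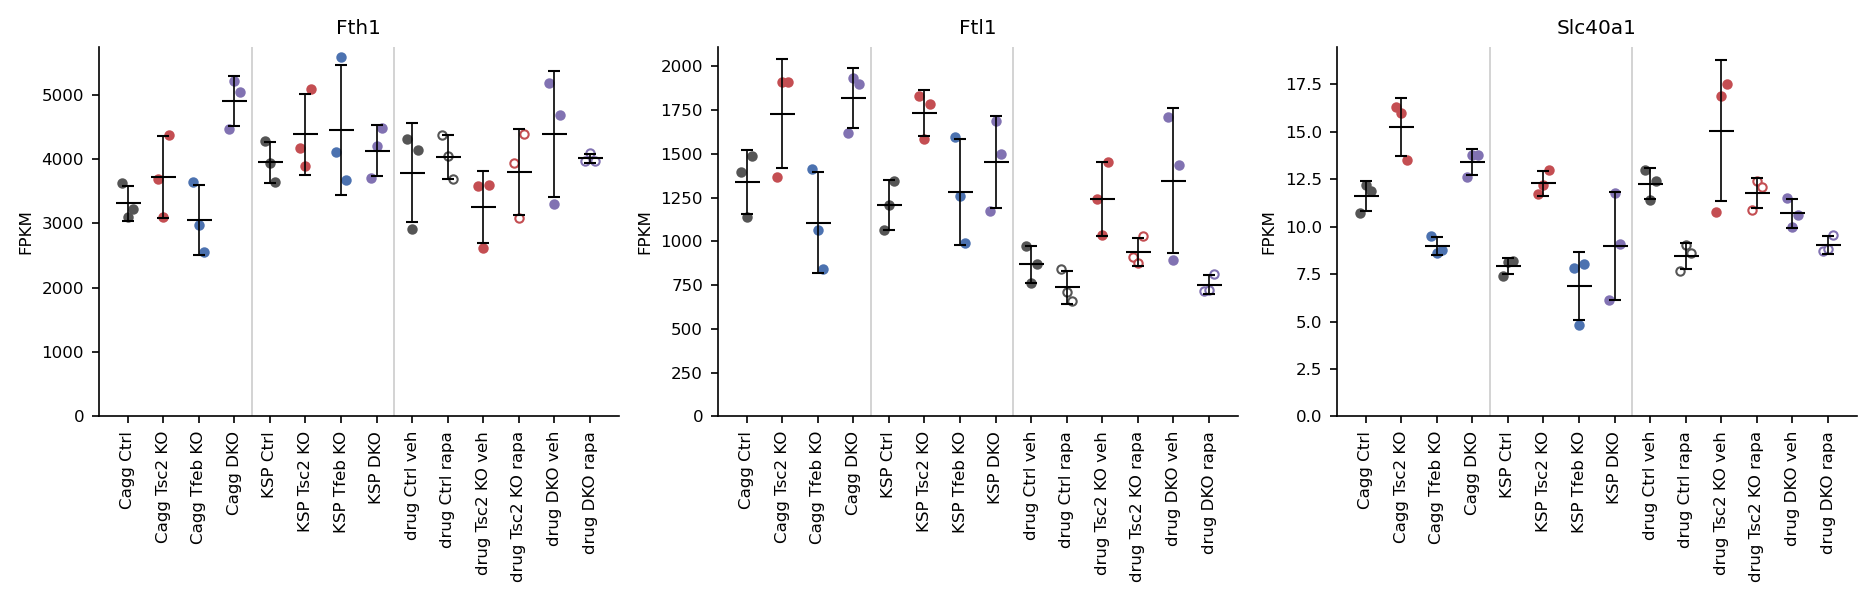
FPKM of Fth1, Ftl1 and Slc40a1 in each of the 42 libraries, by group, with group mean and SD as black bars and open points for rapamycin. Fth1 stays between 2563 and 5590 in every library. Ftl1 is lower with rapamycin than with vehicle in Tsc2 KO (878 to 1029 against 1034 to 1453) and DKO (717 to 813 against 893 to 1710). In Ctrl it overlaps (659 to 841 against 763 to 972).

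Tfrc had 8.27, 10.2 and 13.9 FPKM in KSP Ctrl and 15.4, 12.9 and 23.8 in KSP Tsc2 KO. The groups overlapped through KSP Tsc2 KO replicate 2, and the fold change of 0.68 (SE 0.25) had an adjusted p of 0.095 by edgeR and 0.0491 by DESeq2. In the other cohorts Tfrc overlapped between Ctrl and Tsc2 KO. Ireb2 had 12.4, 14.5 and 14 FPKM in vehicle Ctrl and 10.8, 10.6 and 11.9 in vehicle Tsc2 KO. Its groups did not overlap, yet the change of -0.30 (SE 0.13) had an adjusted p of 0.0855 by edgeR, and was -0.21 (adjusted p = 0.511) without the libraries with adrenal genes. Ncoa4 overlapped between Ctrl and Tsc2 KO in every cohort and varied up to 17.0 FPKM in KSP Ctrl replicate 1 against 4.31 in replicate 3. That same KSP Ctrl library was the single one in which Slc39a14 passed 5 FPKM, at 6.03.

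**Figure D3:**
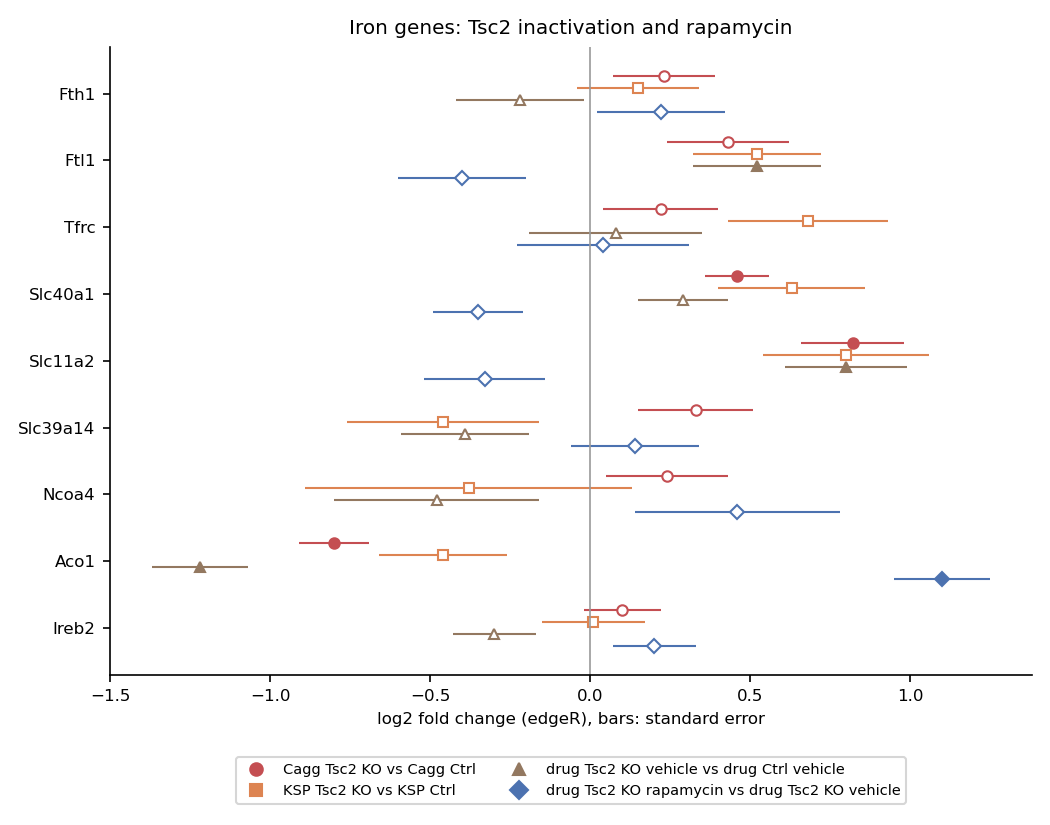
Log2 fold changes of the 9 genes (edgeR, bars: SE) for Tsc2 KO against Ctrl in the Cagg, KSP and vehicle groups and for rapamycin against vehicle in Tsc2 KO, with filled symbols where the gene was called. Aco1 is at -0.80, -0.46 and -1.22 with Tsc2 loss and at 1.10 with rapamycin.

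With loss of Tfeb on its own, 0 of the 9 genes passed the test. In Cagg Tfeb KO against Ctrl, edgeR's quasi-likelihood test and DESeq2 each called 0 members, where they called 0.0256% and 0.691% of genes, and 1 member had an unadjusted p under 0.05, against 8.01% of genes. This was Slc40a1, at 9.53, 8.63 and 8.76 FPKM in Tfeb KO, all under the 3 Cagg Ctrl libraries, with a log2 fold change of -0.34 (SE 0.10, adjusted p = 0.4, edgeR). It was -0.39 (adjusted p = 0.35) without the libraries with adrenal genes and -0.15 (adjusted p = 0.999) under the count table's names. In KSP Tfeb KO against Ctrl, edgeR called 0% and DESeq2 0.107% of genes, both tools called 0 members, and 0 had an unadjusted p under 0.05, against 8.56% of genes.

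Adding Tfeb loss to Tsc2 loss raised Aco1 in the Cagg and rapamycin cohorts. In Cagg DKO, Aco1 had 91.5, 88.1 and 104 FPKM, above every Cagg Tsc2 KO library and within or near the Ctrl range of 90.3 to 113. Against Tsc2 KO it rose by 0.69 (SE 0.11, adjusted p = 0.00325, edgeR), and by 0.71 (adjusted p = 0.00986) under the count table's names. Aco1 was the 1 member called in this comparison, where 14.5% of genes were, and Fth1, at 3697, 3103 and 4372 FPKM in Cagg Tsc2 KO and 4467, 5209 and 5047 in DKO, did not overlap but did not pass (0.38, SE 0.16, adjusted p = 0.153, edgeR; 0.18, adjusted p = 0.697, under the count table's names). Vehicle DKO libraries had 85.2, 62.6 and 94.5 FPKM, again all above vehicle Tsc2 KO and all under vehicle Ctrl, with replicate 2 the lowest. Against vehicle Tsc2 KO, Aco1 rose by 0.83 (SE 0.15, adjusted p = 0.000958, edgeR), or by 0.87 (adjusted p = 0.0497) without the libraries with adrenal genes. In KSP DKO, Aco1 had 53.4, 78.9 and 64.8 FPKM, which overlapped with KSP Tsc2 KO. In that comparison 0 members were called and 0 had an unadjusted p under 0.05 by edgeR (0.286% and 12.6% of genes), and DESeq2 called 0 (4.07% of genes).

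The Tfeb effect on Aco1 differed by Tsc2 status in the Cagg cohort. The difference between the effect of Tfeb loss with Tsc2 lost and with Tsc2 present was 0.81 (SE 0.15, adjusted p = 0.0271, edgeR), the 1 member called where 2.13% of genes were. This call was lost in 7 of 12 fits that left out 1 library (without Ctrl 1, Ctrl 2, Tsc2 KO 1, Tfeb KO 2, or any DKO library; adjusted p 0.017 to 0.0987 over the 12), with Xist as a covariate (1.04, adjusted p = 0.177), with a replicate block (0.81, adjusted p = 0.0596) and without the libraries with adrenal genes (0.79, adjusted p = 0.123). In the KSP cohort 0 members were called for this difference by edgeR (0% of genes) or DESeq2 (0.927%), and 0 had an unadjusted p under 0.05 (9.80% of genes).

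Against Ctrl, Slc11a2 and Fth1 were higher in Cagg DKO. Slc11a2 had 27.1, 26.0 and 28.9 FPKM in Cagg DKO, all above Cagg Ctrl, and against Ctrl it rose by 0.66 (SE 0.16, adjusted p = 0.0191, edgeR). Fth1 had 4467, 5209 and 5047 FPKM in Cagg DKO, the highest group mean of all 14 at 4908 ± 390 (SD, n = 3), above all Cagg Ctrl libraries (3623, 3097 and 3220). It rose by 0.61 against Ctrl (SE 0.16, adjusted p = 0.0308, edgeR). These were the 2 members called in Cagg DKO against Ctrl, where 14.9% of genes were. Both calls depended on single libraries: that of Fth1 held without DKO replicate 1 alone (adjusted p 0.0483 to 0.131 over the libraries left out) and that of Slc11a2 without Ctrl replicate 1 alone (0.0362 to 0.093). Under the count table's names, Fth1 had 0.41 (adjusted p = 0.637) and Slc11a2 0.45 (adjusted p = 0.618), and Fth1 was not called with Xist as a covariate (adjusted p = 0.077) or with a replicate block (0.0551). Tfrc in Cagg DKO, at 27.2, 30.8 and 27.5 FPKM, was above every Cagg Ctrl library (22.7, 21.1 and 15.5), with a change of 0.57 (SE 0.18, adjusted p = 0.0718, edgeR). It passed with DESeq2 (adjusted p = 0.0348), without the low-count filter (0.00878) and with only the groups compared (0.0184), and had 0.52 (adjusted p = 0.506) under the count table's names. Ftl1, at 1620, 1935 and 1896 FPKM in Cagg DKO, was also above every Cagg Ctrl library, with a change of 0.48 (SE 0.19, adjusted p = 0.147, edgeR; 0.0371 with only the groups compared; 0.26, adjusted p = 0.809, under the count table's names). Slc40a1, at 12.6, 13.8 and 13.8 FPKM, lay above the Ctrl libraries by a narrow gap and had 0.25 (SE 0.10, adjusted p = 0.151, edgeR; 0.10, adjusted p = 0.899, under the count table's names). With these, 5 members had an unadjusted p under 0.05, against 24.0% of genes.

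Slc40a1 was lower in vehicle DKO (11.5, 10 and 10.6 FPKM) than in vehicle Tsc2 KO (10.8, 16.9 and 17.5), though Tsc2 KO replicate 1 lay within the DKO range. It fell by 0.49 (SE 0.14, adjusted p = 0.0215, edgeR) and, with Aco1, made up the 2 members called there, against 29.5% of genes. Leaving out vehicle Tsc2 KO replicate 2 or 3 or vehicle DKO replicate 2 or 3 ended this call (adjusted p 0.000444 to 0.0942 over the libraries left out), and without the libraries with adrenal genes it was -0.72 (adjusted p = 0.0519). In the same comparison Slc11a2, at 21, 13.1 and 21.4 FPKM in vehicle DKO, had a change of -0.44 (SE 0.19, adjusted p = 0.112, edgeR), and of -0.37 (adjusted p = 0.633) without the libraries with adrenal genes. Fth1, at 3577, 2615 and 3595 FPKM in vehicle Tsc2 KO and 5189, 3301 and 4690 in vehicle DKO, had 0.43 (SE 0.20, adjusted p = 0.131), 0.59 (adjusted p = 0.0357) without vehicle DKO replicate 2, and 0.39 (adjusted p = 0.616) without all libraries with adrenal genes. Vehicle DKO against vehicle Ctrl gave 0 members by edgeR (8.42% of genes), 5 with an unadjusted p under 0.05 (23.4% of genes), and 1 by DESeq2, Ftl1 (14.4% of genes). Ftl1 in vehicle DKO was spread widely at 1710, 893 and 1436 FPKM, and replicate 2, the library with 4556 FPKM of adrenal genes, was lowest. Its change of 0.63 (SE 0.20, adjusted p = 0.0667, edgeR) became 0.87 (adjusted p = 0.00611) without that replicate and 0.71 (adjusted p = 0.0931) without all libraries with adrenal genes. Ncoa4, at 7.26, 5.23 and 6.87 in vehicle DKO against 13.5, 8.71 and 11.9 in vehicle Ctrl, did not overlap between groups and had a change of -0.82 (SE 0.32, adjusted p = 0.134, edgeR), or -0.73 (adjusted p = 0.613) without the libraries with adrenal genes. Aco1, at 85.2, 62.6 and 94.5 FPKM under all vehicle Ctrl libraries, had -0.39 (SE 0.15, adjusted p = 0.128, edgeR), and -0.17 (adjusted p = 0.767) without the libraries with adrenal genes. Slc39a14 had 2.96, 2.28 and 2.51 FPKM against 4.16, 3.24 and 3.83 in vehicle Ctrl, with a change of -0.54 (SE 0.20, adjusted p = 0.114), or -0.59 (adjusted p = 0.515) without those libraries. Ireb2 had 11.4, 9.98 and 12.4 FPKM, at or under the lowest vehicle Ctrl library, with -0.28 (SE 0.13, adjusted p = 0.213), or -0.15 (adjusted p = 0.829) without them. In KSP DKO against Ctrl, 0 members were called by edgeR (3.89% of genes) or DESeq2 (9.88%) and 2 had an unadjusted p under 0.05 (19.4% of genes), Tfrc (0.63, SE 0.25, adjusted p = 0.19) and Aco1 (-0.48, SE 0.20, adjusted p = 0.208).

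Rapamycin raised Aco1 in Tsc2 KO kidneys. Rapamycin-treated Tsc2 KO libraries had 96.8, 111 and 83.1 FPKM, against 41.9, 42.5 and 52.0 with vehicle. The groups were far apart, and the treated group of 97.1 ± 14 FPKM (SD, n = 3) overlapped with rapamycin-treated Ctrl (116, 113 and 96.5), with replicate 3 under every control. Aco1 rose by 1.10 (SE 0.15, adjusted p = 6.15e-05, edgeR), or 0.91 (SE 0.18, adjusted p = 0.00598) without the libraries with adrenal genes. It was the 1 member called in this comparison, where 38.5% of genes were called. In Ctrl, rapamycin left Aco1 overlapping with vehicle. The difference between the rapamycin effects in Tsc2 KO and in Ctrl was 1.06 for Aco1 (SE 0.21, adjusted p = 0.00259, edgeR), again the 1 member called, against 29.8% of genes, and it was 0.88 (SE 0.21, adjusted p = 0.0235) without the libraries with adrenal genes. In DKO, Aco1 had 103, 111 and 108 FPKM with rapamycin, above all 3 vehicle DKO libraries. The change of 0.41 (SE 0.15) did not pass (adjusted p = 0.119, edgeR), and was 0.19 (adjusted p = 0.77) without the libraries with adrenal genes. Set against DKO, the rapamycin effect on Aco1 in Tsc2 KO was larger by 0.69 (SE 0.21) with an adjusted p of 0.0631 by edgeR and 0.0199 by DESeq2, and of 0.0104 without vehicle DKO replicate 2 (difference 0.83). Without all libraries with adrenal genes it was 0.72 (adjusted p = 0.222). For that difference edgeR called 0 members (11.0% of genes), 1 had an unadjusted p under 0.05 (21.8%) and DESeq2 called 1, Aco1 (16.0%).

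Ftl1 fell with rapamycin in DKO kidneys. It had 717, 724 and 813 FPKM with rapamycin against 1710, 893 and 1436 with vehicle. The treated libraries lay close together and under all vehicle libraries, and the log2 fold change was -0.84 (SE 0.20, adjusted p = 0.0216, edgeR). Ftl1 was the 1 member called, against 7.43% of genes. The call held without vehicle DKO replicate 2 alone (-1.07, with adjusted p 0.00112 to 0.103 over the libraries left out), and the change was -0.93 (adjusted p = 0.0206) without the libraries with adrenal genes. In Tsc2 KO, Ftl1 had 908, 878 and 1029 FPKM with rapamycin, all under the vehicle libraries of 1241, 1034 and 1453 by a gap that was narrow at one end. It was not called with all libraries, with a ratio of mean FPKM of 0.755. Without the libraries with adrenal genes, which leaves 1 vehicle Tsc2 KO library, the log2 fold change was -0.62 (SE 0.17).

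Slc40a1 was lower with rapamycin in each genotype by its mean, and in none did it pass the test. In Ctrl it had 7.69, 9.05 and 8.60 FPKM with rapamycin against 13.0, 11.4 and 12.4 with vehicle. These groups were well apart, but the change of -0.54 (SE 0.14) had an adjusted p of 0.318 by edgeR in a comparison where 0.0664% of genes were called. Of the 9 members, edgeR and DESeq2, which called 0.611% of genes, called 0 in that comparison and 2 had an unadjusted p under 0.05 (11.3% of genes), the other being Ireb2 (-0.33, SE 0.13, adjusted p = 0.389). In Tsc2 KO, Slc40a1 had 10.9, 12.4 and 12.1 FPKM with rapamycin, and the change of -0.35 (SE 0.14, adjusted p = 0.0813, edgeR) became -0.54 (adjusted p = 0.00164) without vehicle Tsc2 KO replicate 1 and -0.56 (adjusted p = 0.0207) without all libraries with adrenal genes. Slc11a2 had 22.2, 19.9 and 17.8 FPKM in rapamycin-treated Tsc2 KO, overlapping with vehicle Tsc2 KO. The rapamycin effect on Slc11a2 in Tsc2 KO differed from that in Ctrl by -0.69 (SE 0.27, adjusted p = 0.0851, edgeR; -0.81, adjusted p = 0.0836, without the libraries with adrenal genes), where Ctrl had 22.0, 15.7 and 17.6 with rapamycin and 12.2, 13.6 and 17.4 without. Ireb2 and Ncoa4 showed differences of 0.54 (SE 0.19, adjusted p = 0.0505) and 0.95 (SE 0.45, adjusted p = 0.145) between the same effects. That of Ireb2 had an adjusted p of 0.0303 with DESeq2. Without the libraries with adrenal genes they were 0.45 (adjusted p = 0.28) for Ireb2 and 1.05 (adjusted p = 0.267) for Ncoa4.

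Between genotypes of rapamycin-treated kidneys, edgeR and DESeq2 called 0 members in each comparison. In Tsc2 KO against Ctrl this stood against 0.821% (edgeR) and 2.57% (DESeq2) of genes, with 1 unadjusted p under 0.05 (12.9% of genes), that of Slc40a1 (0.49, SE 0.14, adjusted p = 0.165). DKO against Ctrl gave 0 members against 0.0134% and 0.147% of genes, and 0 with an unadjusted p under 0.05 (4.13% of genes). DKO against Tsc2 KO gave 0 members against 0.397% and 2.02% of genes, with 2 unadjusted p under 0.05 (10.6% of genes), for Slc40a1 (-0.39, SE 0.14, adjusted p = 0.333) and Ncoa4 (-0.87, SE 0.32, adjusted p = 0.312). Ncoa4 had 7.90, 5.49 and 4.90 FPKM in treated DKO and 6.93, 13.8 and 12.8 in treated Tsc2 KO, which overlapped. Comparisons within a cohort share groups and are not independent of each other.

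The balance of the ferritin chains is given as a description with no test. The ratio of Fth1 to Ftl1 FPKM was 4.33 ± 0.470 (SD, n = 3) in vehicle Ctrl, 2.63 ± 0.222 in vehicle Tsc2 KO and 3.33 ± 0.337 in vehicle DKO. With rapamycin it was 5.5 ± 0.258 in Ctrl, 4.04 ± 0.460 in Tsc2 KO and 5.36 ± 0.412 in DKO. In each genotype all treated libraries had more heavy chain per light chain than all vehicle libraries. KSP Ctrl had ratios of 4.01, 3.25 and 2.70 and Tsc2 KO 2.28, 2.45 and 2.85, which overlapped. In the Cagg cohort they overlapped as well, with 2.6, 2.73 and 2.17 in Ctrl and 2.70, 1.63 and 2.29 in Tsc2 KO.

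**Figure D4:**
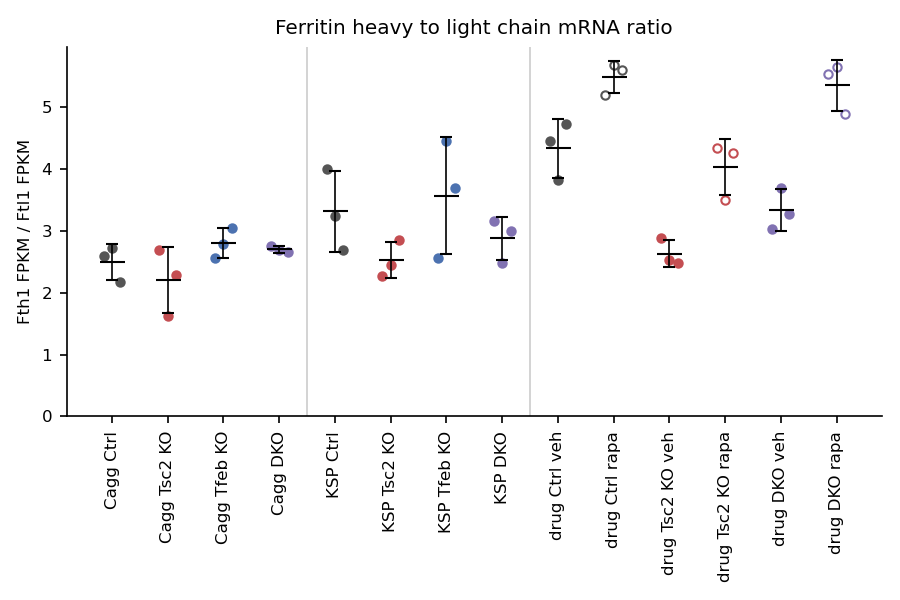
Ratio of Fth1 FPKM to Ftl1 FPKM in each of the 42 libraries, by group, with group mean and SD as black bars and open points for rapamycin. The rapamycin-treated Ctrl libraries are at 5.20, 5.69 and 5.60 and the vehicle-treated Tsc2 KO libraries at 2.88, 2.53 and 2.48.

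Marker sums of the proximal tubule, endothelium, macrophages and tubular injury differed between Ctrl and Tsc2 KO without overlap in each cohort. Those of other kidney cells moved less evenly. The summed FPKM of 10 proximal tubule markers was 10067 to 11346 in Cagg Ctrl, 535 to 3743 in Tsc2 KO and 4654 to 5267 in DKO, and in the KSP cohort 9628 to 12084, 1078 to 2346 and 4950 to 7965. In the rapamycin cohort it was 7470 to 12231 in vehicle Ctrl, 487 to 848 in vehicle Tsc2 KO, 3936 to 4870 in vehicle DKO, 6350 to 8258 in rapamycin-treated Tsc2 KO and 9249 to 9444 in rapamycin-treated DKO. Of the 10 markers, 9 fell with Tsc2 loss in the Cagg, 6 in the KSP and 8 in the vehicle groups, where 15.5%, 8.74% and 24.6% of all genes fell, and 9 rose with rapamycin in Tsc2 KO, where 21.2% of all genes rose. None of the 10 was at 0 in any library. In Cagg and vehicle Tsc2 KO, whose marker sums were the lowest of their cohorts, Aco1 was low and Slc11a2 high. Cagg DKO also had marker sums under all Ctrl libraries, and its Aco1 overlapped with Ctrl. In vehicle DKO, Slc11a2 overlapped with vehicle Ctrl. Rapamycin-treated Ctrl had sums of 5551 to 8427 and Aco1 of 96.5 to 116 FPKM. In KSP DKO, where the marker sum was well above that of Tsc2 KO, Aco1 overlapped with Tsc2 KO. The part of these markers in the Aco1 and Slc11a2 results was not tested.

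The sum of 6 markers of the thick limb and distal tubule was lower in Cagg Tsc2 KO (781 to 993) than in Cagg Ctrl (1407 to 1735), higher in KSP Tsc2 KO (2005 to 2209) than in KSP Ctrl (1573 to 1716), and overlapped between the vehicle groups. That of 8 collecting duct markers was lower in Tsc2 KO in the Cagg (285 to 479 against 637 to 776) and KSP cohorts (351 to 409 against 461 to 822) and overlapped between the vehicle groups (397 to 440 and 352 to 418). The sum of 5 endothelial markers was lower in Tsc2 KO in each cohort, at 42.1 to 72 against 73.0 to 82.6 in the Cagg, 26.8 to 42.2 against 54.9 to 70.7 in the KSP and 26.2 to 33.0 against 45.4 to 58.7 in the vehicle groups. That of 6 proliferation genes was higher in KSP Tsc2 KO (14.6 to 19.3 against 1.41 to 3.29) and vehicle Tsc2 KO (8.97 to 29.6 against 1.19 to 1.74) and overlapped in the Cagg cohort. Sums of fibroblast, T cell and B cell markers overlapped between Ctrl and Tsc2 KO in all 3 cohorts. The part of these in the members' results was not tested.

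**Figure D5:**
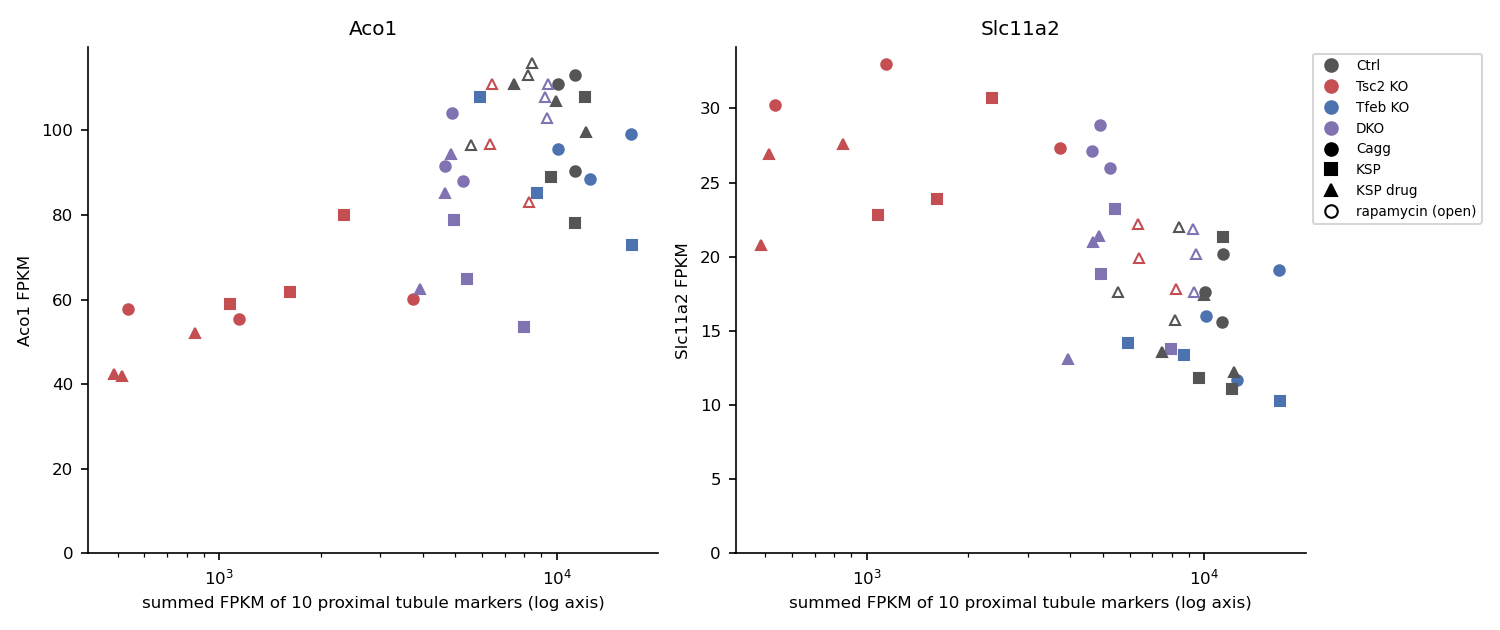
FPKM of Aco1 (left) and Slc11a2 (right) against the summed FPKM of 10 proximal tubule markers (log axis) in 42 libraries, with colour for genotype, shape for cohort and open symbols for rapamycin. Vehicle Tsc2 KO libraries have low marker sums (487 to 848) and the lowest Aco1 (41.9 to 52.0), and Cagg Tsc2 KO libraries range from 535 to 3743 in marker sum.

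Markers of other cells and of injury moved as well. The summed FPKM of 11 macrophage markers was 95.1 to 125 in Cagg Ctrl and 158 to 203 in Cagg Tsc2 KO, 58.1 to 83.7 and 110 to 177 in the KSP cohort, and 47.0 to 63.1 and 112 to 201 in the vehicle groups, while rapamycin-treated Tsc2 KO had 46.6 to 94.2. In DKO, where Ftl1 fell with rapamycin, it was 67.5 to 92.3 with vehicle and 37.0 to 55.2 with rapamycin. Macrophages are rich in Slc40a1 and ferritin mRNA, and the part of these cells in the Slc40a1 and Ftl1 values was not tested. KSP DKO replicate 1 stood apart with 735 against 71.7 and 96.2 in its group. It was also the KSP DKO library with the lowest Aco1 (53.4 FPKM), Slc40a1 (6.12), Ftl1 (1172) and Fth1 (3704). Without it, 0 members were still called in both KSP DKO comparisons. The sum of 6 tubular injury genes was 1466 to 1824 in Cagg Ctrl and 5173 to 7822 in Tsc2 KO, 1273 to 1660 and 5914 to 7763 in the KSP cohort, 1267 to 1323 and 5309 to 7628 in the vehicle groups, and 1649 to 2494 in rapamycin-treated Tsc2 KO. In DKO it was 4017 to 6584 in the Cagg cohort, 2772 to 3539 in the KSP cohort, 1588 to 3407 with vehicle and 1280 to 1360 with rapamycin. The sum of 7 red cell genes, which include the globins, was 201 to 301 in vehicle Ctrl, 14.5 to 87.3 in vehicle Tsc2 KO, 2059, 2153 and 364 in vehicle DKO and 106 to 309 in rapamycin-treated DKO. It was 128 to 493 in KSP Ctrl and 20.7 to 43.0 in KSP Tsc2 KO, and in the Cagg cohort it overlapped, at 434 to 1490 in Ctrl and 45.2 to 670 in Tsc2 KO. The part of red cells and injury in the results was not tested.

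The pattern of Aco1 over the 14 group means, each cohort centred on its own mean, was most like those of Hgd (Pearson r = 0.98), Slc23a1 (0.98) and Tcea3 (0.98) among 9152 genes. Slc11a2 was most like Fam53c (0.98), Plekhg5 (0.98) and Twf1 (0.98). Among the members, Slc11a2 and Aco1 had r = -0.67, Ftl1 and Aco1 -0.70, Slc40a1 and Aco1 -0.71, Ftl1 and Slc40a1 0.78 and Ncoa4 and Ireb2 0.81. These describe 14 points that share cohorts and are not tests.

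A further 73 gene symbols of iron handling were listed, and the pathway sizes below count those found in the gene tables. Of these genes, 68 could be tested. With Tsc2 loss, 10 rose and 13 fell in the Cagg cohort, which is 41.8% of the 55 that reached the FPKM minimum, against 38.4% of all genes. In KSP Tsc2 KO 5 rose and 9 fell, 25.9% of 54 against 18.2%. In vehicle Tsc2 KO 8 rose and 24 fell, 61.5% of 52 against 48.5%. Rapamycin in Tsc2 KO raised 22 and lowered 3, 25 of 50 against 38.5%, and DKO against Tsc2 KO on vehicle raised 18 and lowered 2, 37.0% of 54 against 29.5%. These shares were not tested against each other. They count both directions together, among genes that reached the FPKM minimum. The counts by pathway that follow are split by direction, and the pathway sizes include genes that were under that minimum or not tested. The shares above are therefore not a matching background for them, and the counts by pathway are a description only. In Ctrl kidneys edgeR called 0 of the 68 tested iron genes with rapamycin. Among 15 other genes of uptake and iron reduction, 5 rose and 3 fell in the Cagg cohort, 3 and 4 in the KSP cohort, and 4 and 6 in the vehicle groups. Of 17 genes of mitochondrial iron and iron-sulfur clusters, 1 rose and 3 fell with Tsc2 loss in the Cagg cohort, 1 rose and 0 fell in the KSP cohort, the vehicle comparison had 1 higher and 6 lower, and rapamycin in Tsc2 KO had 5 higher and 0 lower. Of 9 heme synthesis genes, 1 rose and 3 fell with Tsc2 loss in the Cagg cohort, 0 and 1 in the KSP cohort and 0 and 3 in the vehicle groups, and 3 rose with rapamycin. Of 6 other storage and chaperone genes, 0 were called in the Cagg and KSP cohorts, and 3 fell in the vehicle groups and 3 rose with rapamycin. Of 7 other export and ferroxidase genes, 1 rose and 1 fell in the Cagg cohort, 2 fell in the KSP cohort, and 1 rose and 3 fell in the vehicle groups. Of 10 genes of heme uptake and breakdown, 1 rose and 1 fell in the Cagg cohort, 1 and 2 in the KSP cohort and 2 and 3 in the vehicle groups. Of 8 hepcidin pathway genes, 1 rose and 2 fell in the Cagg cohort and 0 were called in the others.

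The 5 of these with the largest change per cohort shared Hmox1, the heme oxygenase that frees iron from heme. It had 14.3, 11.9 and 13.3 FPKM in Cagg Ctrl and 86.2, 106 and 66.4 in Cagg Tsc2 KO, far apart, and rose by 2.77 (SE 0.20, adjusted p = 4.16e-06, edgeR). KSP Ctrl had 9.51, 13.6 and 9.57 against 84.8, 50.7 and 88.1 in Tsc2 KO (2.77, SE 0.32, adjusted p = 0.000388), and vehicle Ctrl 14.3, 6.68 and 10.2 against 51.7, 59.6 and 72.2 (2.55, SE 0.32, adjusted p = 1.32e-05). Hmox1 was not called between Cagg DKO and Tsc2 KO, where DKO had 89.9, 114 and 72.3 FPKM (0.08, SE 0.19, adjusted p = 0.837). Rapamycin lowered it in Tsc2 KO to 12.9, 13.1 and 23.5 FPKM (-1.89, SE 0.31, adjusted p = 0.000268) and in DKO from 52.0, 23.5 and 44.0 to 8.67, 8.67 and 9.62 (-2.15, SE 0.31, adjusted p = 0.00106).

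Others of that rule were the siderophore-binding Lcn2, which rose by 3.00 (SE 0.78, adjusted p = 0.0127, edgeR) in Cagg and by 5.14 (SE 0.49, adjusted p = 9.68e-07) in vehicle Tsc2 KO, and which is also one of the injury genes. The ferroxidase Cp rose by 1.64 in Cagg Tsc2 KO (SE 0.28, adjusted p = 0.00105), as did Bmp6, an inducer of hepcidin, by 1.33 (SE 0.14, adjusted p = 3.05e-05). The transferrin gene Trf rose by 2.13 in KSP Tsc2 KO (SE 0.51, adjusted p = 0.0168), with 2.51, 3.96 and 11.0 FPKM against 1.31, 1.65 and 1.01. Prom2 fell by 1.57 in Cagg (SE 0.23, adjusted p = 0.000428) and by 1.41 in KSP Tsc2 KO (SE 0.38, adjusted p = 0.029). Flvcr2 fell by 1.23 in KSP (SE 0.16, adjusted p = 0.000663) and by 2.17 in vehicle Tsc2 KO (SE 0.28, adjusted p = 2.03e-05). The megalin gene Lrp2 fell by 1.31 in KSP (SE 0.28, adjusted p = 0.0095) and by 2.50 in vehicle Tsc2 KO (SE 0.18, adjusted p = 7.76e-08), and the cubilin gene Cubn fell by 2.51 there (SE 0.19, adjusted p = 8.49e-08). Lrp2 and Cubn, the receptors for filtered transferrin, are also counted among the 10 proximal tubule markers.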

How the data were processed

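RNA came from whole kidney, and libraries were non-directional. The submitters' processing notes name STAR 2.6.1d, HISAT2 2.0.5, featureCounts 1.5.0-p3, DESeq2 1.20.0 and the build mm10, without their roles. The authors deposited raw counts per gene and FPKM per gene for 42 libraries. Counts were tested with edgeR 4.0.16 in R 4.3.3 (filterByExpr, TMM, quasi-likelihood, all groups of a cohort in 1 fit), with DESeq2 1.42.0 as an alternative. The deposited FPKM, normalized by the authors for length and depth, gave the levels and the call minimum of 5. The edgeR fit was tested on simulated counts with 200 genes changed in Tsc2 KO. In the Cagg, KSP and rapamycin cohorts it recovered 25%, 3% and 16% of 1.5-fold changes and 77%, 34% and 51% of 2-fold changes. Of its calls, 5.56%, 9.76% and 9.46% were unchanged genes. A member that was not called may thus still have changed, most of all in the KSP cohort. Reads were not assigned by strand: Slc11a2 overlaps Gm5475 on the opposite strand (12 to 139 counts). The members and lists were chosen with earlier results of these data known. All 9 members are named, with a fold change where called or at an unadjusted p under 0.05. Of the other iron genes, the 5 called with the largest change in Tsc2 KO against Ctrl per cohort are named, and the 3 genes most like a member called in Tsc2 KO against Ctrl in at least 2 cohorts. P-values set a difference against the spread between libraries within groups, estimated over all groups in the fit rather than in 1 group alone. Alternatives were DESeq2, other size factors (RLE), no low-count filter, only the groups compared, no FPKM minimum or one in every library, a replicate block, Xist as covariate, the count table's names, each library left out and, added after seeing the data, no libraries with adrenal genes.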

Additional observations from a re-analysis of the deposited data

Results flagged for a closer look

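A pair of differences between effects passed the test in edgeR's quasi-likelihood fit. For Aco1, the effect of Tfeb loss in the Cagg cohort was larger with Tsc2 lost than with Tsc2 present by 0.81 on the log2 scale (SE 0.15, adjusted p = 0.0271). Also for Aco1, the effect of rapamycin was larger in Tsc2 KO than in Ctrl by 1.06 (SE 0.21, adjusted p = 0.00259). The first was lost in 7 of 12 fits with 1 library left out, with a replicate block (adjusted p = 0.0596), with Xist as a covariate (0.177) and without the libraries with adrenal genes (0.123), and the second was called with each of its 12 libraries left out, with a replicate block and without the libraries with adrenal genes. Xist was not fitted for the second.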

How the results depend on the processing

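Of 47 fold changes and differences followed, 0 changed direction in any setting. Of 15 called, 7 were called in every setting and with every library left out: 6 of these are the Aco1 results other than the Cagg difference between Tfeb effects, and the other is Slc11a2 in vehicle Tsc2 KO against Ctrl. The counts of members called moved by more than 1.5 times as follows, and the cause was not tested except that fewer samples enter some fits. With the count table's names, Cagg Tsc2 KO against Ctrl gave 1 and Cagg DKO against Ctrl 0. With only the groups compared, Cagg DKO against Ctrl gave 4, KSP Tsc2 KO 2, vehicle DKO against Tsc2 KO 1 and DKO with rapamycin 0. With Xist, Cagg DKO against Ctrl gave 1 and the Cagg difference 0. DESeq2 gave 3 in KSP Tsc2 KO (22.5% of genes) and 1 in vehicle DKO against Ctrl (14.4%). For the rapamycin effect in Tsc2 KO it gave 2 against Ctrl (34.0%) and 1 against DKO (16.0%). RLE gave 2 for the effect against Ctrl. Shares of all genes were not counted for settings other than DESeq2. No low-count filter gave 1 in KSP Tsc2 KO. Without libraries with adrenal genes, the Cagg difference gave 0, vehicle DKO against Tsc2 KO 1 and rapamycin in Tsc2 KO 3 (Ftl1, Slc40a1 and Aco1). Smaller moves were 3 in Cagg DKO against Ctrl with DESeq2 (18.4% of genes) and with no low-count filter, and 2 in vehicle Tsc2 KO with only the groups compared. Replicate numbers did not pair the samples (median correlation of same-numbered samples 0.00881, -0.04 and -0.00502 in the 3 cohorts); with a replicate block, Cagg DKO against Ctrl gave 1 (Slc11a2), the Cagg difference 0, KSP Tsc2 KO 2 (Tfrc and Slc11a2) and vehicle DKO against Ctrl 1 (Ftl1). Leaving out each library in turn gave 1 to 2 members in Cagg DKO against Tsc2 KO, 0 to 1 in Cagg DKO against Ctrl, 0 to 1 for the Cagg difference, 0 to 1 in KSP Tsc2 KO, 2 to 3 in vehicle Tsc2 KO, 1 to 2 in vehicle DKO against Tsc2 KO, 0 to 1 in vehicle DKO against Ctrl, 1 to 2 with rapamycin in Tsc2 KO, 0 to 1 in DKO, and 1 to 2 and 0 to 1 for its effect in Tsc2 KO against Ctrl and against DKO. Slc39a14, with as few as 306 counts, has the least depth.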
